A study of Homo sapiens with 4 samples.

Results

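The autophagy genes examined here were 38 protein-coding genes given as a list, of 20033 protein-coding genes annotated outside the mitochondrial genome, and all 38 were found by their symbols. They comprised 5 genes of the ULK initiation complex, 6 of the phosphatidylinositol 3-kinase (PI3K) nucleation complex, 5 for lipid supply and for proteins that bind phosphatidylinositol 3-phosphate (PI3P), 11 for the conjugation enzymes, 5 for ATG8 proteins, 3 for cargo receptors and 3 for transcription regulators. No measured value was part of the rule, but the members and gene lists were chosen with earlier results of these data known. The data came from m6A meRIP-seq of OE-19, an established cell line of adenocarcinoma of the esophagogastric junction (AEG), grown in RPMI1640 with serum and antibiotics, for which the labels name no edited gene and no treatment. This assay enriches RNA pieces that bear N6-methyladenosine (m6A) with an antibody before sequencing, and a peak is a stretch where they accumulate. The series held 4 samples, 2 replicates of the m6A immunoprecipitation (IP) and 2 of the input, and each IP replicate had its own list of peaks, whereas input values were not analysed here. The labels do not say whether the replicates came from separate cultures, so the difference between the lists may be technical. With 2 lists of 1 condition there was no comparison of conditions and no test. Values are given beside those of all protein-coding genes.

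Macroautophagy encloses cytoplasm and organelles in a double membrane that then fuses with the lysosome. The ULK kinase complex starts the process, the PI3K complex marks the membrane with PI3P, ATG2 and ATG9 proteins supply lipid, and a ubiquitin-like conjugation system couples ATG8 proteins to the growing membrane, where cargo receptors bind them. m6A is placed on mRNA mainly at DRACH, a 5-base motif whose first base is A, G or T, whose second is A or G, which goes on with A and C and whose last is A, C or T. It is known to lie mostly in long exons and around stop codons, and reader proteins that bind it alter the stability and translation of the mRNA.

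Replicate 1 held 24607 peaks with a median fold enrichment of 5.27, and replicate 2 held 19318 with a median of 5.08. Fold enrichment is the ratio of signal at the summit of a peak, its highest point, over the background of the peak caller. A gene was counted as carrying a peak when a summit lay in one of its exons. The lists hold no read numbers, so the depth is unknown, and precision rests on how many peaks there were. They hold no expression values either, and a gene without a peak may have been too weakly expressed for one to be called, which was not tested. Among 7 epithelial marker genes only CDH1 carried a peak in both lists, where the shares of all genes of like exonic length would give 2.30. Of 6 immune and stromal markers 0 did, where those shares would give 2.73. VIL1 of the first set and COL1A1 of the second carried a peak in replicate 1 only. A peak list cannot check the identity of a cell line.

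Sequence is shown for the member with the strongest shared peak in each of the role groups that had one (all but the ATG8 proteins), and for UVRAG and AMBRA1, chosen after their values were seen because their summits lay in the coding sequence close to the stop codon. ATG14, ATG101 and TFEB also had shared summits there in both lists, and their sequences are not shown. Sequences are from hg38, 5′ to 3′ on the strand of the gene, with DRACH matches in capitals. Coding windows are 101 nt centred on the summit of replicate 1. Windows of 29 nt, used for summits after the stop codon, are centred on the A of the GGAC nearest to that summit, or of the nearest DRACH where no GGAC lay within 50 nt. GGAC followed by A, C or T is itself a DRACH match. PIK3R4 is shown for chr3:130744612-130744712 on the minus strand, in exon 2 of 20, ATG2A for chr11:64894975-64895003 on the minus strand, with its last base the start of the stop codon, and ATG4A for chrX:108153812-108153840 on the plus strand, centred 116 nt after the start of the stop codon. FOXK1 is shown for chr7:4762893-4762921 on the plus strand and ULK1 for chr12:131921658-131921686 on the plus strand, both in the 3′ UTR. NBR1 is shown for chr17:43200436-43200536 on the plus strand, UVRAG for chr11:76141286-76141386 on the plus strand and AMBRA1 for chr11:46397590-46397690 on the minus strand, all coding.
PIK3R4: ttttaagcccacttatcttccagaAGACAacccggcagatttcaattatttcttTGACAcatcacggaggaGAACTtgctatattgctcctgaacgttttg
ATG2A: caagtggcgctcGGACAgtgcccaAGACT
ATG4A: ccaatagcatacAAACTcaatagcaatca
FOXK1: ggcccgggcaccGGACAgatgcctgttgg
ULK1: ggcagccccggaGGACAggcaagggcctg
NBR1: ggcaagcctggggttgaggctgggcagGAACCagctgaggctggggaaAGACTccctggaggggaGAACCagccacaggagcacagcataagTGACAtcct
UVRAG: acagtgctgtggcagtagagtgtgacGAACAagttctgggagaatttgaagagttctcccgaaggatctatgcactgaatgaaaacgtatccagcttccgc
AMBRA1: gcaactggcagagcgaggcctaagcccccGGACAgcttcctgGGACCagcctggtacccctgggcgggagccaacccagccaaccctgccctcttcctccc

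The windows of AMBRA1, ATG2A, FOXK1 and ULK1 held GGAC, whereas those of PIK3R4, ATG4A, NBR1 and UVRAG held DRACH matches of other letters only. UVRAG, which had the strongest peak of any member in replicate 2 after ATG4A, had a single DRACH match in its window around the replicate 1 summit. Within 50 nt of its replicate 2 summit there were 0, as was also so for a replicate 2 summit of ATG13, of ATG101 and of ATG3. ATG3 had none near its replicate 1 summit either.

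Exonic m6A peaks were found in 26 of the 38 autophagy genes in replicate 1 (68.4%, 95% Wilson interval 52.5% to 80.9%), where 42.4% of all protein-coding genes carried one. In replicate 2 they were found in 19 of 38 genes (50%, interval 34.8% to 65.2%), where 34.1% of all genes carried one. All 19 also carried a peak in replicate 1, so 50% of the members and 33.4% of all protein-coding genes carried a peak in both lists. The 19 were ULK1, ATG13, ATG101, RB1CC1, PIK3R4, ATG14, UVRAG, AMBRA1, ATG2A, ATG2B, ATG9A, WIPI2, ATG3, ATG4A, ATG4B, ATG5, NBR1, TFEB and FOXK1. A further 7 carried a peak in replicate 1 only, namely ATG4C, ATG7, ATG10, MAP1LC3A, SQSTM1, OPTN and TFE3. The remaining 12 carried none in either list. They were ULK2, BECN1, PIK3C3, WIPI1, ATG4D, ATG12, ATG16L1, ATG16L2, MAP1LC3B, GABARAP, GABARAPL1 and GABARAPL2. With peaks limited to those enriched at least 5-fold, 8 members (21.1%) and 19.3% of all protein-coding genes carried one in both lists. The intervals treat genes as independent and cover counting error only.

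Longer genes carried peaks more often, and the autophagy genes were long, with a median exonic length of 6262 nt against 4418 nt over all protein-coding genes. The genes were therefore set beside all genes of the same quartile of exonic length. Of the 3 members in the shortest quartile (MAP1LC3A, GABARAP and ATG4D) 0 carried a peak in both lists, where 13.7% of all genes did. In the next quartile 2 of 7 members did (28.6%, against 29.9% of all genes), namely ATG101 and ATG4A. In the quartile after that 8 of 13 members carried peaks in both lists (61.5%, against 41.4%), and in the longest quartile 9 of 15 did (60%, against 48.5%). At the shares of their own quartiles 15.2 of the 38 genes would carry a peak in both lists, or 39.9%, where 19 did. The interval around the 50% observed includes 39.9%, so an excess beyond length was not detectable with this number of genes.

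**Figure D1:**
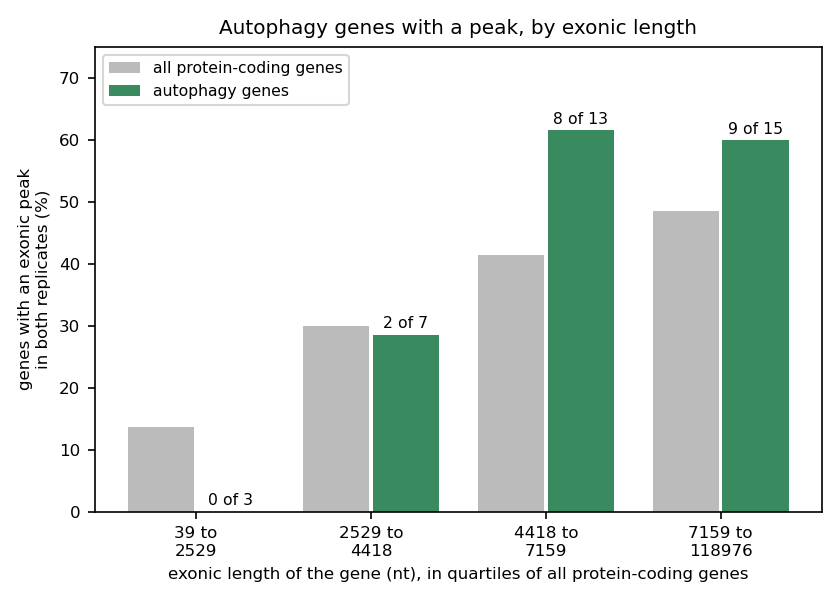
Share of genes with an exonic m6A peak in both replicates (vertical axis, percent), by exonic length in quartiles of all protein-coding genes (horizontal axis, nt), with grey bars for all protein-coding genes and green bars for the autophagy genes. The green bars stand above the grey ones in the longer quartiles (8 of 13 and 9 of 15 genes) and not in the shorter ones (0 of 3 and 2 of 7).

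By role, peaks in both lists were found in 4 of 5 initiation genes, 4 of 6 nucleation genes and 4 of 5 genes of lipid supply and PI3P binding, where the shares of their length quartiles would give 2.17, 2.70 and 2.17. They were found in 4 of 11 conjugation enzymes, where those shares would give 4.26, and in 0 of 5 ATG8 genes, where they would give 1.29. Of the cargo receptors 1 of 3 and of the transcription regulators 2 of 3 carried them, where the shares would give 1.38 and 1.20. The median exonic length was 3010 nt for the ATG8 genes and 6047 to 7831 nt for the other groups. With 3 to 11 genes a group these counts are a description, and whether the groups differed was not tested. GABARAP and MAP1LC3A were in the shortest quartile of length, whereas MAP1LC3B (5037 nt), ATG12 (8867 nt), ATG16L2 (8519 nt) and ULK2 (9868 nt) were longer than the median gene and had no peak. PIK3C3, the longest member with 15154 nt of exonic sequence, had none either.

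The strongest exonic peak of a member had a median fold enrichment of 6.34 in replicate 1 (26 genes, quartiles 4.37 and 8.18) and of 4.77 in replicate 2 (19 genes, quartiles 2.79 and 5.71). The same medians over all protein-coding genes with a peak were 6.90 and 5.70. Both medians of the members lay below those of all genes. Of the 19 genes with peaks in both lists, 10 lay above the median of all genes in replicate 1 and 5 in replicate 2, and only PIK3R4, UVRAG and ATG4A lay above it in both. The value was higher in replicate 1 for 17 of the 19 genes, all but ATG2B and ATG4A.

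**Figure D2:**
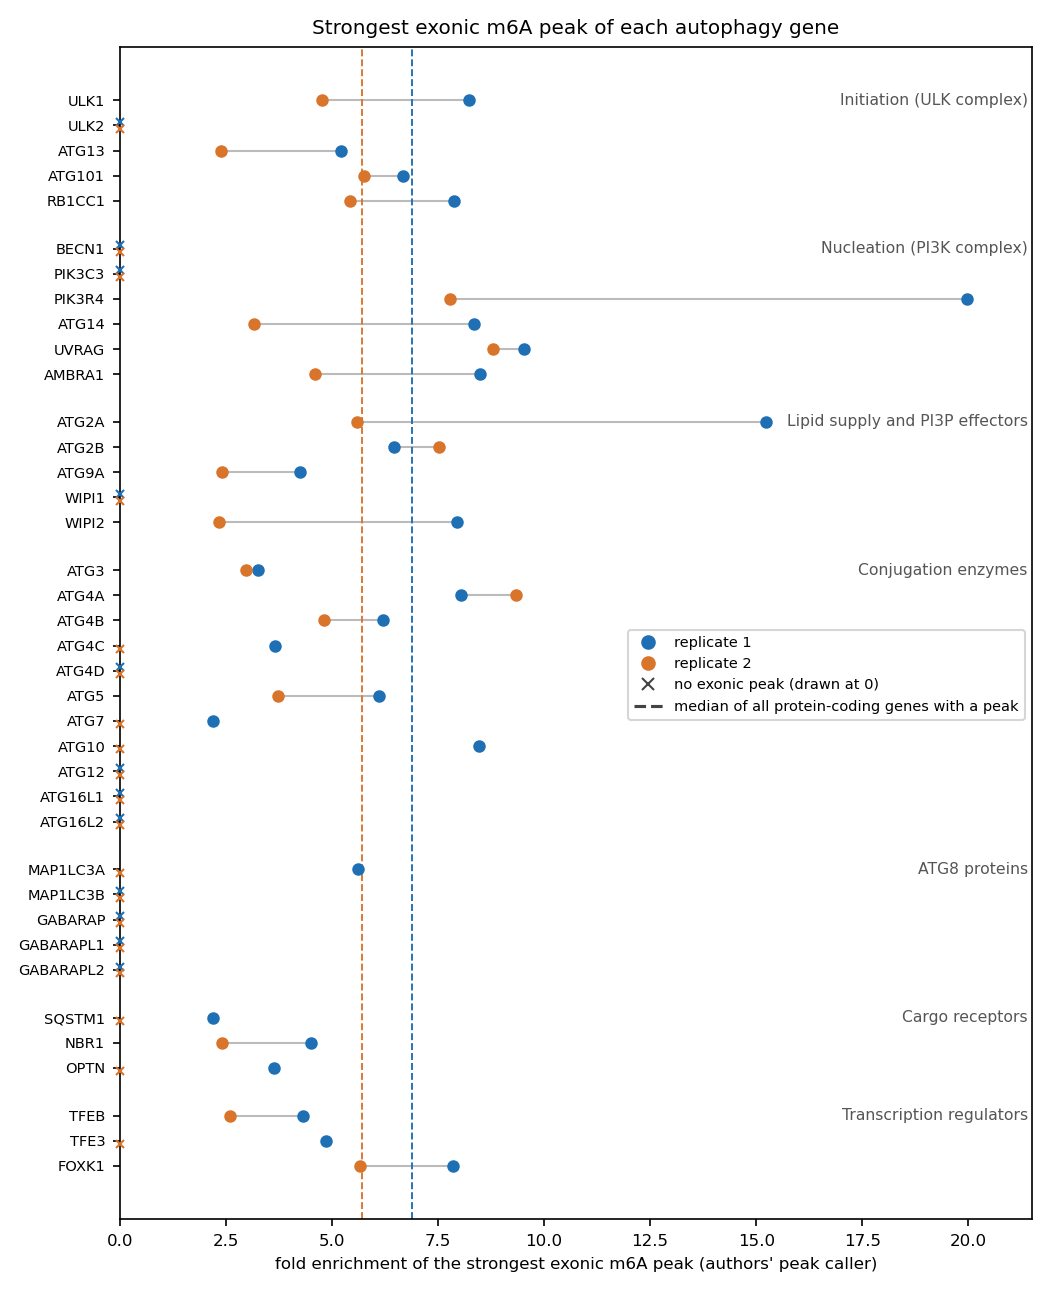
Fold enrichment of the strongest exonic m6A peak (horizontal axis, linear) of each of the 38 autophagy genes, ordered by role, in replicate 1 (blue) and replicate 2 (orange), with crosses at 0 for genes without a peak and dashed lines at the medians of all protein-coding genes with a peak. PIK3R4 in replicate 1 lies farthest to the right at 19.97, replicate 1 lies right of replicate 2 for 17 of 19 genes, and the ATG8 genes hold a single point.

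Of the initiation complex, ULK1, the kinase that starts autophagosome formation, carried 6 exonic peaks in replicate 1 but 1 in replicate 2. The shared peak lay in the last exon at a fold enrichment of 7.30 and 4.77, with summits 356 and 334 nt past the start of the stop codon. The strongest ULK1 peak of replicate 1, at 8.23 in the 5′ UTR, was 130 bp wide and had no counterpart in replicate 2. ATG13, the regulatory subunit, had a pair of shared peaks in the 2264 nt last exon. They reached 5.22 and 2.39 far into the 3′ UTR, and 4.78 and 1.89 near the stop codon, and their summits were 287 and 194 bp apart. The latter was the only shared pair placed in different regions by the lists, in the stop codon window in replicate 1 and beyond it in replicate 2. ATG101, which stabilizes ATG13, carried a shared peak at the stop codon (5.82 and 5.75) and another in the 5′ UTR (6.67 and 2.49). The first lay also in an exon of the noncoding gene ENSG00000257663, and the lists carry no strand to tell them apart. RB1CC1, the scaffold of the complex, had 3 peaks in each list, all inside exon 15 of 24, a coding exon of 1901 nt. Its strongest summits, at 7.88 in replicate 1 and 5.43 in replicate 2, lay 2330 and 2335 nt before the stop codon. ULK2, the paralogue of ULK1, had no peak in either list. All 4 initiation genes with peaks were higher in replicate 1, and ATG101 differed least.

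Of the nucleation complex, PIK3R4, the regulatory subunit of the PI3K, had the strongest peak of any member. Its fold enrichment was 19.97 in replicate 1, at the 98.5th percentile of genes with a peak, and 7.77 in replicate 2, at the 74.7th percentile. The summits lay 2 bp apart in exon 2 of 20, in the coding sequence 3518 and 3520 nt before the stop codon. The stretch covered in both lists was 716 bp and held 3 GGAC and 17 DRACH matches, none of the GGAC within 50 nt of a summit, as the window printed above shows. A weaker shared peak lay in exon 4 (5.99 and 2.57). UVRAG, which replaces ATG14 in a second form of the complex, carried 1 peak in each list, at 9.52 and 8.81, with summits 75 and 44 nt before the stop codon. It ranked at the 72.6th and 82.8th percentiles, and the values of the replicates were close. ATG14, which targets the complex to the site of autophagosome formation, also had its shared peak just before the stop codon, but at 8.35 and 3.15. AMBRA1, a BECN1-binding protein, had 2 shared peaks, each over 1000 bp wide in both lists. That near the stop codon reached 8.49 and 4.60, and that in exon 7, a coding exon of 1454 nt, reached 8.01 and 2.45. BECN1, the scaffold, and PIK3C3, the lipid kinase itself, had no peak in either list.

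Of the genes for lipid supply and PI3P binding, ATG2A and ATG2B encode the lipid transfer proteins that bridge membranes. The ATG2A peak reached 15.2 in replicate 1 (94.3rd percentile) and 5.59 in replicate 2 (47.6th percentile), with summits 30 and 15 nt after the start of the stop codon in exon 41, the last. A narrow peak in exon 1 of ATG2A (7.92) was found in replicate 1 only. ATG2B carried its peak at 6.47 and 7.52, with summits 303 and 287 nt after the stop codon in the last of 42 exons. Both paralogues had a shared peak in the last exon, higher in replicate 1 for ATG2A and in replicate 2 for ATG2B. ATG9A, a lipid scramblase, had a weak shared peak (2.78 and 2.42) that also lay in the readthrough gene ENSG00000284820. The strongest ATG9A peak, at 4.24 in exon 8, a coding exon of 749 nt, was found in replicate 1 only. WIPI2, a PI3P-binding protein that recruits the conjugation machinery, had its shared peak at the stop codon (7.95 and 2.33), the widest gap between the lists of any shared pair, at 1.77 on the log2 scale. Its paralogue WIPI1 had no peak.

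Among the conjugation enzymes, ATG4A, a protease that processes ATG8 proteins, carried the strongest shared peak, at 8.05 in replicate 1 (61.1st percentile) and 9.33 in replicate 2 (85.7th percentile). Its summits lay 103 and 158 nt after the start of the stop codon, and the 369 bp shared by the lists held 15 DRACH matches and 0 GGAC. ATG4B had its shared peak at nearly the same place, 149 and 157 nt after the start of the stop codon, at 5.46 and 4.82. A narrower peak of ATG4B at 6.20, further into the 3′ UTR, was found in replicate 1 only. ATG4C had a peak in replicate 1 only (3.65). ATG4D had none, although peaks of both lists (6.32 and 4.38) reached into its exons, because their summits lay in an exon of KRI1 on the opposite strand. ATG5, which forms a conjugate with ATG12, had a shared peak 122 and 174 nt after the start of the stop codon (6.10 and 3.73). ATG3, the E2-like enzyme for ATG8 proteins, had a shared peak in the 5′ UTR (3.25 and 2.96). ATG10, the E2-like enzyme for ATG12, had a peak of 8.46 in the 3′ UTR in replicate 1 that had no counterpart in replicate 2. The peak of ATG7, the E1-like enzyme, was weak (2.19), was found in replicate 1 only and lay also in an exon of VGLL4 on the opposite strand. ATG12, ATG16L1 and ATG16L2, which join ATG5 in the complex that directs ATG8 conjugation, had no peak. Peaks found in both lists were therefore on ATG3, ATG4A, ATG4B and ATG5, 3 of them within 200 nt of the stop codon.

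The ATG8 proteins are the small ubiquitin-like proteins coupled to the membrane. MAP1LC3A was the only member of this group with a peak, at 5.63 in replicate 1, with the summit 15 nt before the stop codon, and it had none in replicate 2. MAP1LC3B, GABARAP, GABARAPL1 and GABARAPL2 had none in either list. How reads that match several related genes equally well were treated is not given in the sources used here.

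Of the cargo receptors, which tether ubiquitinated cargo to ATG8 proteins, NBR1 carried a shared peak in exon 17, a coding exon of 442 nt, at 4.52 and 2.42. SQSTM1 had a weak peak in replicate 1 only (2.20), in the 3′ UTR and also in an exon of MRNIP on the opposite strand. OPTN had peaks of 3.62 and 3.22, both in replicate 1 only. The median of the strongest peak was 3.62 over the 3 receptors in replicate 1, the lowest of the role groups, and in replicate 2 NBR1 alone had a value.

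Of the transcription regulators, FOXK1, a forkhead factor that represses autophagy genes, had the most peaks of any member, 9 in replicate 1 and 2 in replicate 2. The shared peaks lay in its last exon of 9259 nt, of which the first was 2527 and 2454 bp wide at 7.85 and 5.66, and the other 1068 and 1043 bp wide at 7.06 and 5.48. The first held 14 GGAC and 46 DRACH matches in the stretch common to the lists, and a GGAC lay 2 nt from the summit of replicate 1, whereas 0 lay within 50 nt of the summit of replicate 2, 112 bp away. TFEB, which activates lysosomal and autophagy genes, had a shared peak before the stop codon (4.32 and 2.61), 1002 and 963 bp wide. Its relative TFE3 had 3 peaks of 4.48 to 4.87 in replicate 1 and none in replicate 2.

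Between the lists, 26 of 61 exonic peaks of members in replicate 1 overlapped a peak of replicate 2 (42.6%, interval 31.0% to 55.1%), where 60.6% of 18488 exonic peaks of all protein-coding genes did. That interval did not include the share of all genes, but it treats peaks as independent, and 7 of the 9 peaks of FOXK1 and 5 of the 6 of ULK1 were unshared. Without those genes 23 of 46 were shared (50%, interval 36.1% to 63.9%), an interval that includes 60.6%. All 26 member peaks of replicate 2 overlapped a peak of replicate 1 (100%, interval 87.1% to 100%), where 95.9% of 12003 did. With as many peaks kept in replicate 1 as in replicate 2, by q, a setting chosen after seeing the data like the removal of genes, 56.5% of its member peaks were shared (interval 42.2% to 69.8%) and 69.1% of those of all genes. The member peaks of replicate 1 without a counterpart numbered 35. Their median fold enrichment was 3.65 against 6.57 for the shared ones, and their median width 166 against 562.5 bp. Over all protein-coding genes the same medians were 3.96 against 6.47 and 194 against 473 bp. Of the shared peaks 11 of 26 lay in the stop codon window, and of the others 2 of 32 (42.3% against 6.25%), where the shares over all genes were 28.2% against 18.5%. GGAC lay within 50 nt of 42.3% of the shared and 60% of the unshared member summits, whereas over all genes it was 52.7% and 45.4%. Among peaks in internal exons, 7 of 7 shared ones lay in exons of at least 400 nt, against 1 of 11 of the others (74.4% against 23.2% over all genes).

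**Figure D3:**
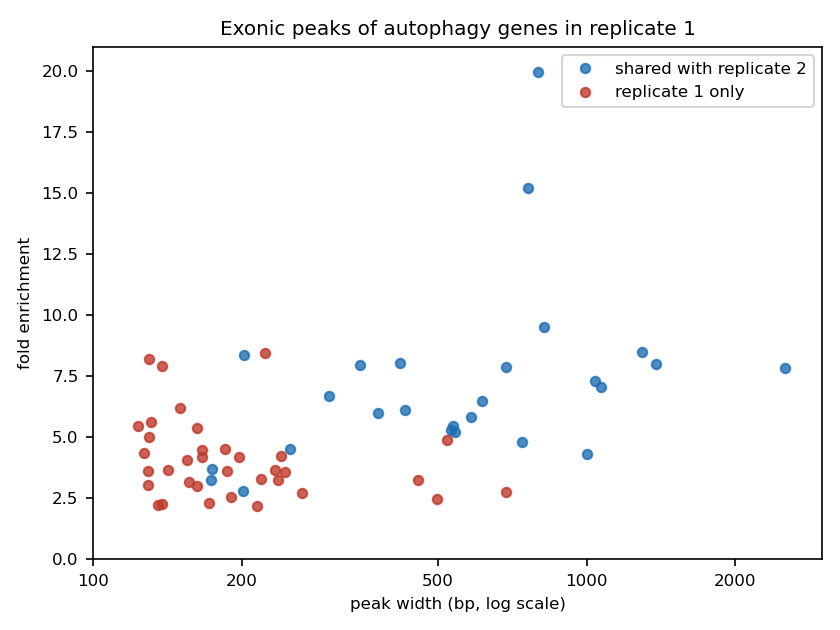
Fold enrichment (vertical axis, linear) against peak width (horizontal axis, bp, log scale) of the 61 exonic peaks of autophagy genes in replicate 1, in blue those that overlap a peak of replicate 2 and in red those that do not. The red points gather at the narrow end (median 166 bp) and reach at most 8.46, and every peak wider than 687 bp is shared.

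Mutual largest overlaps gave 25 pairs of peaks in 19 genes. Fold enrichment was higher in replicate 1 in 23 of the 25, with a median log2 ratio of 0.73 (0.36 with a fold enrichment of 5 or more, where all genes gave 0.34), where 80.6% of 10853 pairs of all protein-coding genes were higher in replicate 1 with a median of 0.44. The summits lay a median of 22 bp apart (26 bp over all genes), and 17 of 25 lay within 50 bp (68%, against 69.6%). In RB1CC1 the rule paired the replicate 1 peak of 7.88 with a replicate 2 peak of 3.17, with summits 342 bp apart. The RB1CC1 peak of 5.43 in replicate 2, whose summit lay closer, stayed unpaired. The log2 fold enrichments of a pair correlated with a Pearson r of 0.56 and a Spearman rho of 0.52 over the 25 pairs, and with 0.70 and 0.69 over all pairs. These correlations are across peaks of the same pair of libraries, and peaks are not independent replicates.

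Along the transcript, 24 of the 25 pairs lay in the same region in both lists. Of these, 10 pairs in 10 genes lay within 200 nt of the start of the stop codon, 6 in the rest of the coding sequence, 6 in the rest of the 3′ UTR and 2 in the 5′ UTR. The last exon held 17 of the 25. By summits, it held 51.7% of those of members in replicate 1 (50.4% over all genes) and 65.4% in replicate 2 (59.3% over all genes). Summits of members lay in the stop codon window in 13 of 58 cases in replicate 1 (22.4%, interval 13.6% to 34.7%, against 24.5% of all genes' summits) and in 10 of 26 in replicate 2 (38.5%, interval 22.4% to 57.5%, against 27.1%). In both replicates the interval included the share of all genes. The share in replicate 1 was 39.3% with a fold enrichment of 5 or more (against 26.3% of all), and a window of 100 nt held 12.1% and 15.4% (14.5% and 16.2% of all). The coding sequence outside the window held 34.5% of member summits in replicate 1 (interval 23.6% to 47.3%, against 48.5% of all) and 26.9% in replicate 2 (interval 13.7% to 46.1%, against 47.4%). In the rest of the 3′ UTR were 29.3% (interval 19.2% to 42.0%, against 18.1%) and 26.9% (against 19.8%). The coding shares of all genes lay above the intervals of the members in both replicates, by under 2 percentage points. The intervals treat summits as independent, although 6 of the 17 in the 3′ UTR in replicate 1 were of FOXK1 alone. Without FOXK1 the coding shares were 34.7% (interval 22.9% to 48.7%) and 29.2% (interval 14.9% to 49.2%), and that of the 3′ UTR in replicate 1 was 22.4% (interval 13.0% to 35.9%). These intervals include the shares of all genes. The coding share of replicate 1 hardly changed from 34.5%, however, and its interval came to include that of all genes by widening, with 49 summits in place of 58. In replicate 2 the coding share rose from 26.9%, with 24 summits in place of 26.

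**Figure D4:**
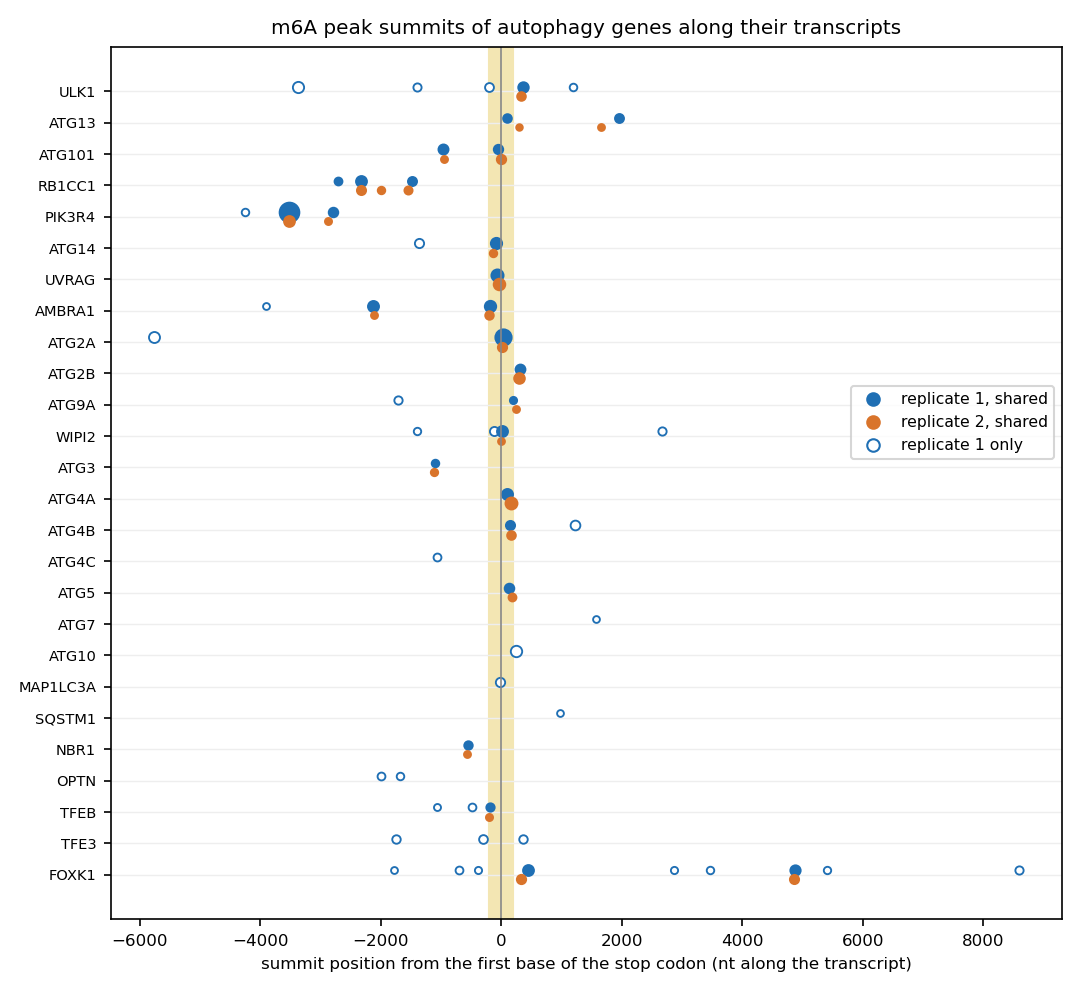
Position of each exonic m6A summit of the autophagy genes along the transcript with the longest coding sequence (horizontal axis, nt, counted from the start of the stop codon, negative upstream), with replicate 1 in blue and replicate 2 in orange, filled where peaks of the lists overlap and open where they do not, larger for higher fold enrichment. The shaded stop codon window reaches 200 nt to either side. Filled points of the replicates fall nearly on top of each other, 10 pairs of them inside the window, whereas PIK3R4 and RB1CC1 have theirs far upstream, and FOXK1 has one 4867 nt downstream in replicate 1.

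GGAC lay within 50 nt of 32 of 61 member summits in replicate 1 (52.5%, interval 40.2% to 64.5%, against 49.8% of all exonic summits of protein-coding genes). In replicate 2 it lay near 8 of 26 (30.8%, interval 16.5% to 49.99%, against 51.8%). In replicate 2 the upper bound of the interval, which treats summits as independent, lay just below the share of all genes. With a fold enrichment of 5 or more the share with GGAC was 11.1% in replicate 2 (54.2% of all). That share rests on few summits, of which that of ATG2A alone had GGAC. With a window of 25 nt the share was 24.6% in replicate 1 (29.0% of all) and 23.1% in replicate 2 (30.2% of all). DRACH was found near 54 of 61 summits (88.5%, against 85.6%) and 22 of 26 (84.6%, against 89.0%). Over the whole stretch covered in both lists, 17 of 25 pairs held GGAC (68%, against 83.9% of all pairs) and all 25 held DRACH. The 8 without GGAC were those of ATG4A, ATG2B, ATG14, NBR1, ATG3, exon 4 of PIK3R4 and both pairs of RB1CC1. A match is a description of the sequence and does not mark a methylated base.

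Of 58 other genes of the pathway, 35 carried an exonic peak in both lists (60.3%, against 33.4% of all protein-coding genes), 4 in replicate 1 only and 19 in neither. At the shares of their length quartiles 23.3 would. By role they were 7 of 15 upstream kinases and nutrient sensors, 6 of 9 genes for membrane and PI3P, 9 of 15 for ATG8 proteins and fusion with the lysosome, 9 of 12 other receptors and 4 of 7 transcription regulators. In that order the shares of their length quartiles would give 6.25, 3.36, 5.72, 4.70 and 3.25. Whether these groups differed was not tested. The 8 with the strongest shared peaks were FOXO1 (18.5 in replicate 1 and 15.1 in replicate 2), RETREG1 (28.8 and 9.64), RUBCN (18.0 and 15.4), NRBF2 (16.3 and 12.7), ZFYVE1 (16.3 and 10.2), EPG5 (11.2 and 13.1), TSC1 (15.1 and 9.05) and AKT1S1 (9.99 and 8.26). All but AKT1S1 and TSC1 lay above 9.33 in replicate 2, the value of ATG4A and the highest of any member there. FOXO1 is a transcription factor of autophagy genes, RETREG1 is a receptor for the endoplasmic reticulum, RUBCN and NRBF2 bind the PI3K complex, ZFYVE1 binds PI3P, EPG5 acts in fusion with the lysosome, and TSC1 and AKT1S1 restrain MTOR signalling. The peak of RUBCN lay also in exons of ENSG00000287286 and MIR922. FOXK2, the paralogue of FOXK1, had its strongest shared peak at 11.8 and 6.85, also in an exon of ENSG00000261845, against 7.85 and 5.66 for that of FOXK1. MTOR, the kinase that restrains ULK1, had 1 peak in each list at 3.78 and 3.799.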

How the data were processed

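m6A meRIP-seq peak lists of 2 IP replicates of OE-19 cells were analysed, and 2 input samples had no values analysed here. According to the study's methods, the antibody was applied to fragmented total RNA, but the labels speak of cells fixed with UV light. The methods name TopHat2 with hg38 and MACS2 with default settings, and the submitters' processing notes list fastp, HISAT2 and MACS2. Which aligner made these files, the tool versions, and whether the input served as control in peak calling are not given in the sources used here. For each peak the authors deposited the fold enrichment, a ratio over the caller's background, −log10 values of its p-value and q-value, a score (left unused) and the summit offset. The largest q was 0.0491 and 0.0497, so the deposited lists end near the default of 0.05. Fold enrichment depends on the local background, so lists can differ in it at the same m6A level.

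Genes were taken from GENCODE version 44 on hg38. A summit was counted for every protein-coding gene with an exon there, since the lists carry no strand. Of the member summits, 4 in replicate 1 and 2 in replicate 2 lay also in exons of another gene. Transcript regions came from the isoform with the longest coding sequence, with 200 nt on each side of the start of the stop codon as the stop codon window. An overlap of 1 bp or more made peaks shared. Motifs were searched up to 50 nt from the summit, on the gene's strand. Of the genes named, all 38 members were accounted for, sequence was shown for the member of each role group with the strongest shared peak, and of 58 other pathway genes the 8 with the strongest shared peak were named. Strength of a shared peak was the geometric mean of its fold enrichments. The members and lists were chosen with earlier results of these data known. The alternatives were stricter q and fold enrichment limits, other overlap rules and windows, and each replicate left out. Intervals are 95% Wilson intervals. The scripts were tested on simulated data. Python 3.11.15, numpy 2.4.6, scipy 1.17.1, pysam 0.24.0 and matplotlib 3.10.9 were used.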

Additional observations from a re-analysis of the deposited data

How the results depend on the processing

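Of 61 alternative values, 9 moved by more than the spread or interval of the value reported (or the limit for counts). The other 52 did not. A reversal was defined for the median log2 ratio of pairs alone, and its sign held. Shares in the stop codon window, and with GGAC in replicate 1, changed side against all genes under some settings. In replicate 1 the stop codon share went from 22.4% (24.5% of all) to 28.9% (26.1% of all) with q of 1e-05 or less. A window of 100 nt took that of replicate 2 from 38.5% (27.1% of all) to 15.4% (16.2% of all). Other shares and medians tried kept their side. A fold enrichment of 5 or more left 8 members with a peak in both lists (19.3% of all protein-coding genes), and gave medians of the strongest peak of 7.95 in replicate 1 and 6.64 in replicate 2, 39.3% of summits in the stop codon window in replicate 1, and GGAC at 11.1% of summits in replicate 2. It also lowered the median log2 ratio of the pairs from 0.73 to 0.36, a shift smaller than the spread between pairs. A stop codon window of 100 nt gave 12.1% and 15.4%, and a motif window of 25 nt gave GGAC at 24.6% in replicate 1. With as many peaks in replicate 1 as in replicate 2, chosen by q, 56.5% of member peaks in replicate 1 were shared. That setting, the removal of FOXK1 and ULK1, and the use of summits in exons of 1 gene only, which left 18 members, were chosen after seeing the data. Counts of members stayed at 17 to 20 under the limits on q and the other overlap and exon rules, and were 19 without replicate 1 and 26 without replicate 2. No paired analysis was possible because only the IP group had peak lists and no result came from a test. With 38 genes and 26 to 61 peaks, intervals span over 20 percentage points for most shares, and the depth of the libraries is unknown.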

Other observations

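Summits in introns, outside every exon, were counted as well. Replicate 1 had 0 in any member and replicate 2 had 2, both in UVRAG, the stronger at a fold enrichment of 5.44. Neither overlapped a peak of replicate 1. Of 20033 protein-coding genes, 1838 carried such summits in replicate 1 (2579 summits) and 1888 in replicate 2 (2854 summits). Of the summits of all genes 39.2% and 39.1% were shared. Whether the members differed from all genes was not tested.

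The AMP-activated kinase phosphorylates ULK1 when energy is low. Its catalytic subunits PRKAA1 and PRKAA2 had no exonic peak in either list, and of PRKAB1, PRKAB2, PRKAG1 and PRKAG2, the other subunits examined, PRKAB2 alone had one (5.01 in replicate 1 and 3.97 in replicate 2). Among the HOPS subunits, which tether vesicles to the lysosome, VPS18 had 4 peaks in replicate 1 and 5 in replicate 2, with equal strongest values within 0.1 (8.40 and 8.43). VPS39 reached 8.76 and 6.29, VPS41 reached 4.61 and 4.05, VPS11 had a peak in replicate 1 only (6.68), and VPS16 and VPS33A had none. Over all protein-coding genes 33.4% carried a peak in both lists. Whether the subunits of either complex differed from that share was not tested.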
